A study of Mus musculus with 4 samples.

Results

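Macrophages of the thymus are long-lived phagocytes that clear the many thymocytes dying during selection, and 10 genes that mark such cells or their activation states were followed here: Marco, Hmox1, Arg1, Apoe, C1qa, C1qb, C1qc, Mrc1, Vsig4 and Csf1r. They were chosen by symbol, and 9 of the 10 had a row among the 10598 gene symbols of the table. Vsig4, a macrophage receptor for complement fragments, was not analysed here. All 9 passed the filter on low values, which asked for a mean level of 10 or more.

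Thymus of C57BL/6J mice had been sequenced as bulk RNA, and 4 groups had 1 library each: wild type and CAMKIIγ-/- (Camk2g knockout) mice, each given vehicle or MNU. MNU (N-methyl-N-nitrosourea) is an alkylating mutagen that induces T-cell lymphoma in mice, and it had been injected once into the abdominal cavity at 75 mg/kg, at 4 to 5 weeks of age. The labels give 6 months as the time since MNU or vehicle, and the study asked how losing Camk2g changes lymphoma development. The labels name no sorting of cells. The number of mice behind a library and the part of Camk2g that is deleted are not stated.

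Macrophages differentiate and survive through the receptor encoded by Csf1r, which binds the growth factors CSF1 and IL34. They secrete C1q, the recognition molecule of the classical complement pathway, which binds dying cells and immune complexes, and they take up cargo through scavenger and lectin receptors such as those encoded by Marco and Mrc1. They also recycle what they engulf: Apoe encodes a carrier of cholesterol, Hmox1 the enzyme that breaks down haem, and Arg1 the arginase that is a marker of alternative activation.

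Totals of normalised counts lay between 32911362 and 34836257 per library. Camk2g stood at 2749 in vehicle wild type and 3173 in MNU wild type, against 489 in the library labelled vehicle knockout and 29.7 in MNU knockout. The library labelled vehicle knockout also stood apart in another way. Over 42 genes above 1000 normalised counts in MNU wild type and over 20-fold below that in vehicle wild type and in MNU knockout, its level above the mean of those other libraries was 15.4% of that of MNU wild type in the median (13.9% to 18.5% between the 5th and 95th percentiles). Its Camk2g level was likewise 15.4% of that of MNU wild type, and 1.15 normalised counts once this share of the MNU wild-type library was subtracted and the rest rescaled. Whether the library held RNA of the wild-type MNU thymus or the knockout thymus itself had these levels cannot be told apart here, and this bears on each value of vehicle knockout below. The comparisons of the 9 genes that use it (MNU in knockout, and knockout against wild type on vehicle) are therefore given as deposited, with the share subtracted, and with MNU knockout in its place. With 1 library per group there was no spread between samples and no test, and "at least 2-fold" below means a log2 difference of at least 1 between values to which 10 had been added, while a fold given for a named gene divides its normalised counts as deposited.

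The 9 genes fell into a group that was much higher in MNU wild type (Arg1, Marco, Hmox1 and Mrc1) and a group whose levels spanned less than 2.5-fold over the 4 libraries (C1qa, C1qb, C1qc, Csf1r and Apoe). In wild type, 5 of the 9 were at least 2-fold higher with MNU, where 7.14% of all 10587 genes were, and 0 of 9 were at least 2-fold lower, where 14.2% of all genes were. The median log2 difference of the 9 was 1.30, against -0.0052 over all genes. For the 5 genes of narrow range and for Mrc1, each pair of neighbours in the order of the libraries lay under 2-fold apart, so that order is not firm without replicates. In bulk tissue, more macrophages, more RNA of a gene per macrophage and RNA of the same gene from other cells cannot be told apart.

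**Figure D1:**
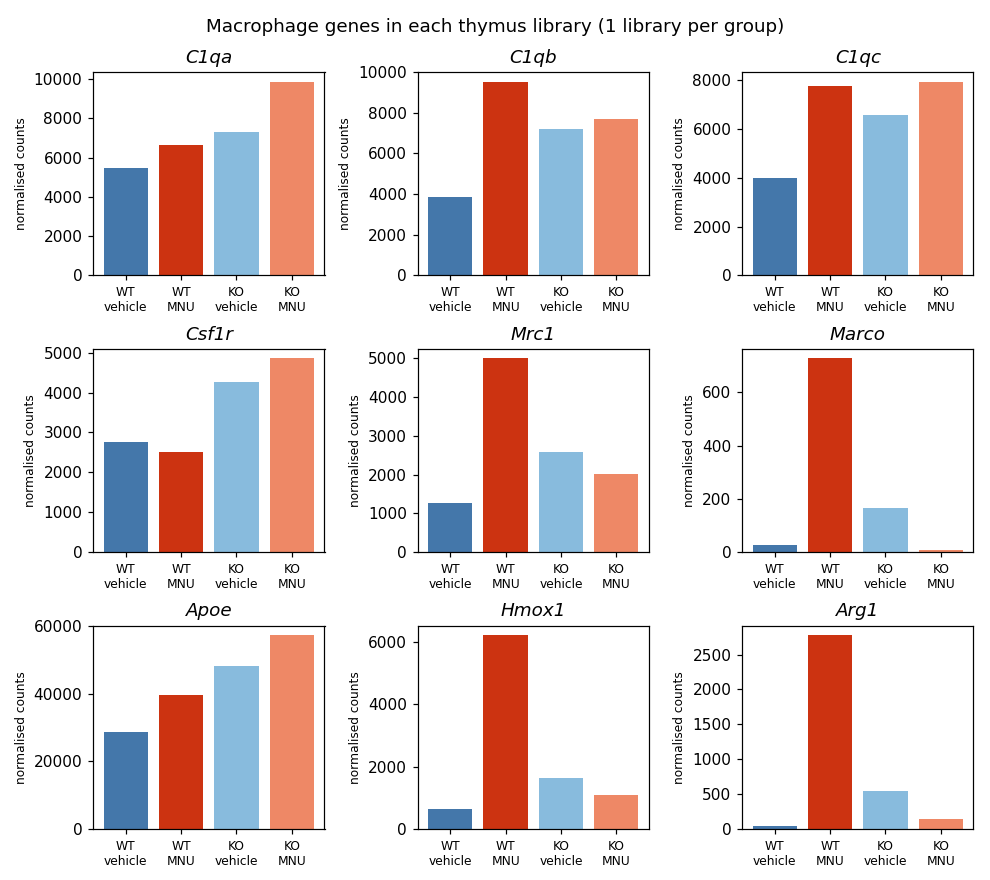
Normalised counts (vertical axes, each starting at 0) of the 9 macrophage genes in the 4 thymus libraries, 1 bar per library. Arg1, Marco, Hmox1 and Mrc1 were highest in MNU wild type, whereas C1qa, Csf1r and Apoe were highest in MNU knockout.

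The genes of the C1q chains were lowest in vehicle wild type. C1qa, the A chain, stood at 5463 normalised counts in vehicle wild type, 6621 in MNU wild type, 7292 in vehicle knockout and 9873 in MNU knockout. C1qb, the B chain, stood at 3862, 9531, 7213 and 7679 in the same order of libraries. C1qc, the C chain, stood at 3984, 7752, 6574 and 7950. Wild type without MNU was thus the low library for each chain, but the high library differed: it was MNU knockout for C1qa and C1qc and MNU wild type for C1qb. With MNU in wild type, C1qb was 2.47-fold higher, C1qc 1.95-fold and C1qa 1.21-fold, so that only C1qb of these chains passed 2-fold.

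The balance of the chains, which does not depend on how a library was scaled, therefore differed between libraries. The ratio of C1qb to C1qa was 0.707 in vehicle wild type and 0.778 in MNU knockout, against 1.44 in MNU wild type and 0.989 in vehicle knockout. The ratio of C1qc to C1qa followed the same order, at 0.729, 0.805, 1.17 and 0.902. Between C1qc and C1qb the ratio varied less, from 0.813 in MNU wild type to 1.04 in MNU knockout. With the share subtracted, vehicle knockout stood at 0.916 for C1qb to C1qa and 0.858 for C1qc to C1qa, still between MNU knockout and MNU wild type.

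Csf1r, the receptor on which macrophages depend, was the only one of these 9 genes that was lower with MNU in wild type. It stood at 2751 normalised counts in vehicle wild type, 2513 in MNU wild type, 4266 in vehicle knockout and 4856 in MNU knockout. The 2 wild-type libraries lay 1.09-fold apart and the 2 knockout libraries 1.14-fold apart, and both knockout libraries were above both wild-type libraries. Knockout with MNU was 1.93-fold above MNU wild type. Knockout without MNU was 1.55-fold above vehicle wild type, and 1.67-fold with the share subtracted.

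Mrc1, which encodes the mannose receptor CD206, was 3.93-fold higher with MNU in wild type. Its levels were 1271 normalised counts in vehicle wild type, 4996 in MNU wild type, 2570 in vehicle knockout and 2020 in MNU knockout. Set against Csf1r within each library, Mrc1 was at 0.462 and 0.416 in vehicle wild type and MNU knockout, at 0.602 in vehicle knockout and at 1.99 in MNU wild type. The higher Mrc1 level in wild type was thus not matched by Csf1r. C1qb differed in the same direction relative to Csf1r, from 1.40 in vehicle wild type to 3.79 in MNU wild type, and stood at 1.69 and 1.58 in knockout without and with MNU. After subtraction of the share, vehicle knockout was at 0.465 for Mrc1 and 1.48 for C1qb relative to Csf1r.

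**Figure D2:**
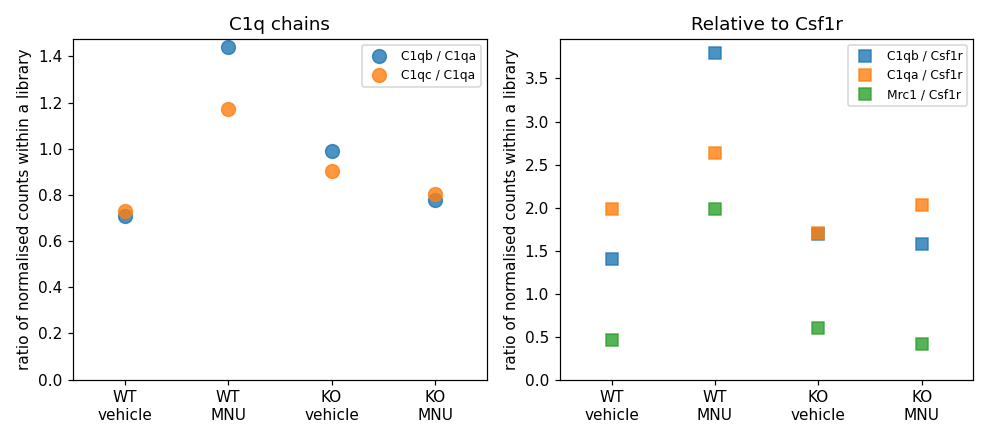
Ratios of normalised counts within each library (vertical axes), for the C1q chains on the left and for C1qb, C1qa and Mrc1 relative to Csf1r on the right. Wild type with MNU is highest for each plotted ratio, with C1qb to C1qa at 1.44 and Mrc1 to Csf1r at 1.99; the ratio of C1qc to C1qb, lowest there, is not plotted.

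Marco, a collagenous scavenger receptor that binds bacteria and particles, had the widest range of the 9 genes. It stood at 27.8 normalised counts in vehicle wild type, 727 in MNU wild type, 165 in vehicle knockout and 8.21 in MNU knockout. It was 26.2-fold higher with MNU in wild type and 20.1-fold lower with MNU in knockout, and the libraries with MNU lay 88.6-fold apart. At the low end 1 normalised count stood for about 1 read, so the level in MNU knockout rests on few reads. Only 0.576% of all genes had a larger increase than Marco with MNU in wild type, decreases not being counted.

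Apoe, the apolipoprotein that carries cholesterol out of macrophages, was abundant in each library, and its levels spanned 2.001-fold. It stood at 28670 normalised counts in vehicle wild type, 39706 in MNU wild type, 48173 in vehicle knockout and 57363 in MNU knockout. Its order over the libraries was that of C1qa, with each neighbouring pair of libraries less than 1.4-fold apart. Knockout with MNU was 2.001-fold above vehicle wild type.

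Hmox1, which encodes the inducible haem oxygenase, was 9.71-fold higher with MNU in wild type. It stood at 640 normalised counts in vehicle wild type, 6208 in MNU wild type, 1648 in vehicle knockout and 1092 in MNU knockout. The 3 other libraries lay within 2.58-fold of each other and MNU wild type was at least 3.77-fold above each of them.

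Arg1, the cytosolic arginase that converts arginine to ornithine, had the largest difference of the 9 in wild type. It stood at 36.7 normalised counts in vehicle wild type, 2777 in MNU wild type, 544 in vehicle knockout and 143 in MNU knockout. With MNU it was 75.7-fold higher in wild type, and 0.208% of all genes had a larger increase, decreases not being counted. All neighbours in the order of its libraries lay more than 3.8-fold apart, and both knockout libraries were above vehicle wild type.

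**Figure D3:**
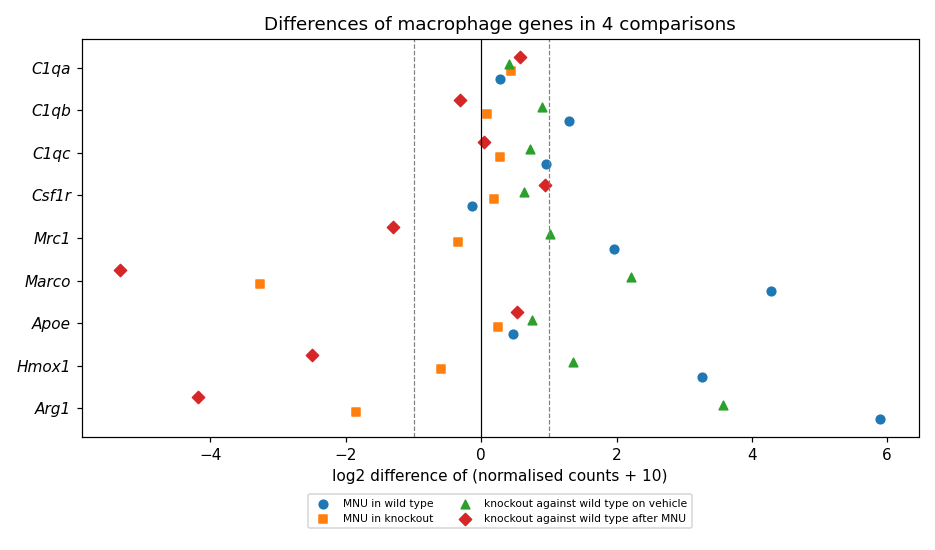
Log2 difference of (normalised counts + 10) on the horizontal axis for the 9 macrophage genes in 4 comparisons, 1 mark per comparison, with dashed lines at 2-fold. Arg1, Marco, Hmox1 and Mrc1 lie to the right for MNU in wild type and to the left for knockout against MNU wild type, and the other 5 genes stay between -0.31 and 1.30.

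Promoter sequences of Marco, Mrc1, C1qb and C1qc are shown because C1qb and C1qc had nearly parallel levels while the receptor genes did not, and because all 4 are expressed in macrophages, where the transcription factor PU.1 is a main regulator. Each is the 250 bases before the start site, 5′ to 3′ on the gene's strand, from RefSeq on GRCm38.p6, with GAGGAA, a core of the PU.1 motif, in capitals on either strand (TTCCTC on the other). Marco lies at chr1:120505025-120505274 on the minus strand, Mrc1 at chr2:14229164-14229413 on the plus strand, C1qb at chr4:136886201-136886450 on the minus strand and C1qc at chr4:136892915-136893164 on the minus strand.
C1qb: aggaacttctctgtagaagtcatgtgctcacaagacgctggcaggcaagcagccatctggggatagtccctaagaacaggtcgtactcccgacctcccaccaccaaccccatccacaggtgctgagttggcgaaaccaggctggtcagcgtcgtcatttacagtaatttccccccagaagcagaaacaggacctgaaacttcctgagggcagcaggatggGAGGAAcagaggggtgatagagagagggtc
C1qc: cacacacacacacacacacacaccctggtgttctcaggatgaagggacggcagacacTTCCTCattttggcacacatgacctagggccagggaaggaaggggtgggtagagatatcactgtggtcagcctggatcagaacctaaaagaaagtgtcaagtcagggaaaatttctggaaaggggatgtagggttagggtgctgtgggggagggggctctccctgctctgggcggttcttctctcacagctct
Mrc1: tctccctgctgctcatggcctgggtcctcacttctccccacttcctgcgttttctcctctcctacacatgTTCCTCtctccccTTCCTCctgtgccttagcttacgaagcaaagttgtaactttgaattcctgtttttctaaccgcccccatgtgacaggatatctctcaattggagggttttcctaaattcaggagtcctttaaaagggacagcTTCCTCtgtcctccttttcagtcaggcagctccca
Marco: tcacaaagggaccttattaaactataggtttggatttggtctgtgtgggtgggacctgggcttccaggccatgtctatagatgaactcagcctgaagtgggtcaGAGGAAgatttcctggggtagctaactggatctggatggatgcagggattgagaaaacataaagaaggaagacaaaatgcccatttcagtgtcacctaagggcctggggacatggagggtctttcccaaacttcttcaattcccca
The Mrc1 window held 3 matches and the other windows 1 each. In C1qb the match began 30 bases before the start site. Of all 32851 promoter windows of this length, 23.3% held the same letters on either strand, so a match is common. None of these 4 windows held TGANTCA (AP-1, in 6.75% of all windows), CACGTG (E-box, 6.02%) or TTGCGCAA (C/EBP, 0.164%), where N is any base and both strands were read. TGACNNNGC, the core of the antioxidant response element, was in the C1qb window, 103 bases before the start site, and in 10.2% of all windows. Promoters of 6 of the 10 genes were in the RefSeq table, and those of Apoe, with 3 start sites, and Vsig4 are not shown.

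In the knockout, the log2 difference with MNU was smaller in size than in wild type for 7 of the 9 genes and larger for C1qa and Csf1r. Once the share was subtracted it was smaller for 8 and larger for C1qa alone. How many of all genes had a smaller change in knockout was not computed, so these counts are not read as particular to the 9. Fewer of all genes passed 2-fold with MNU in knockout (0.331% higher, 2.95% lower) than in wild type (7.14% and 14.2%). With MNU, 0 of the 9 were at least 2-fold higher, where 0.331% of all genes were, and Marco and Arg1 were at least 2-fold lower (2 of 9), where 2.95% of all genes were. Arg1 was 3.80-fold lower, Hmox1 1.51-fold lower and Mrc1 1.27-fold lower, while C1qa was 1.35-fold and Csf1r 1.14-fold higher. How large these decreases were depended on the library labelled vehicle knockout. With the share subtracted, Marco alone was at least 2-fold lower (1 of 9, and 1.87% of all genes), Arg1 was at 1.03 times and Hmox1 at 1.33 times the level without MNU.

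Without MNU, all 9 genes were higher in the library labelled knockout than in wild type, where 49.9% of all genes were higher by any amount. Of the 9, 4 were at least 2-fold higher (2.59% of all genes) and 0 at least 2-fold lower (0.359% of all genes). Arg1 was 14.8-fold higher, Marco 5.93-fold, Hmox1 2.58-fold and Mrc1 2.02-fold, and the other 5 were between 1.33-fold and 1.87-fold higher.

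The position of these 4 genes between the other libraries was close to that of the 42 genes for some and above it for others. Measured above the mean of vehicle wild type and MNU knockout, vehicle knockout held 14.6% of the wild-type MNU level for Hmox1, 16.9% for Arg1, 20.7% for Marco and 27.6% for Mrc1. With the median share subtracted all 9 stayed higher than in wild type, but only Arg1 remained at least 2-fold higher on the log2 scale used for counting (1 of 9, and 1.72% of all genes), at 3.77-fold, and 0 of 9 were at least 2-fold lower (0.501% of all genes). The ratios were then 2.25 for Marco, 1.28 for Hmox1 and 1.68 for Mrc1. Marco fell short of the count because 10 was added to each value.

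With MNU knockout in place of that library, 8 of 9 genes were still higher than in vehicle wild type, by 1.59-fold to 3.90-fold, where 50.6% of all genes were higher. Apoe and Arg1 were at least 2-fold higher (2 of 9, and 1.57% of all genes), C1qb and C1qc were just under that at 1.988-fold and 1.995-fold, and Marco was 3.38-fold lower (1 of 9, and 1.11% of all genes). The direction of Marco in the knockout therefore differed between the 2 knockout libraries.

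**Figure D4:**
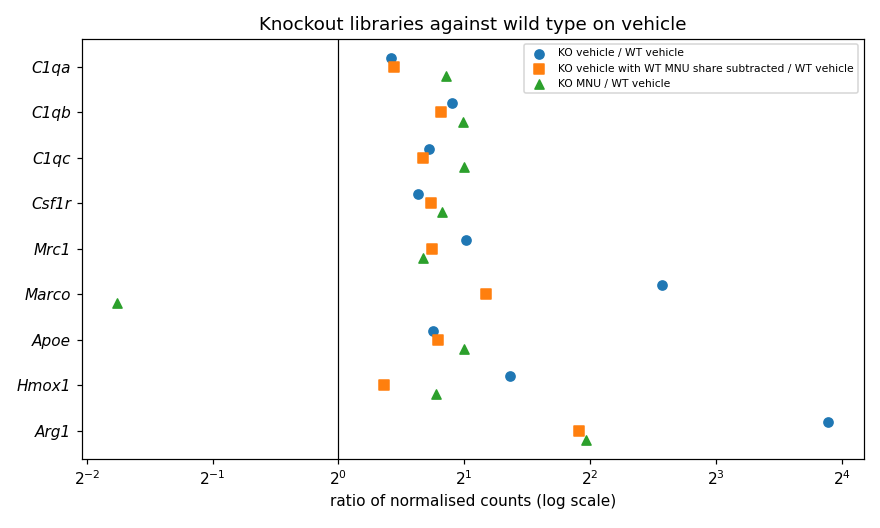
Ratio of normalised counts to vehicle wild type (horizontal log axis) for vehicle knockout as deposited, for the same library with the wild-type MNU share subtracted, and for MNU knockout. C1q genes, Csf1r and Apoe lie between 1.33 and 2.001 in all 3 settings, whereas Arg1 moves from 14.8 to 3.77 and Marco from 5.93 to 2.25 and 0.296.

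After MNU, the 4 genes grouped above by their high level in MNU wild type were all lower in knockout, a direction that follows from that grouping. The 5 genes of narrow range differed from each other. Marco was 88.6-fold, Arg1 19.4-fold, Hmox1 5.68-fold and Mrc1 2.47-fold lower in knockout (4 of 9 at least 2-fold lower, where 7.37% of all genes were). Csf1r, C1qa and Apoe were 1.93-fold, 1.49-fold and 1.44-fold higher, C1qc was at 1.03 times the wild-type level and C1qb was 1.24-fold lower, none of them past 2-fold (0 of 9, where 15.0% of all genes were at least 2-fold higher). The MNU change was also compared with its sign, as the log2 change in wild type minus that in knockout. This was at least 2 for 4 of 9 genes (Marco, Arg1, Hmox1 and Mrc1), where 3.64% of all genes reached it. It was -2 or below for 0 of 9, where 6.62% of all genes were. As deposited, these 4 genes rose with MNU in wild type and fell in knockout, so the value is not a difference in size. With the share subtracted the counts were again 4 of 9, the same 4 genes (2.96% of all genes), and 0 of 9 (5.88% of all genes). This comparison shares libraries with those above, and with MNU knockout in place of vehicle knockout it becomes the comparison of the genotypes after MNU.

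A wider list of macrophage genes held both higher and lower members in wild type. Of 35 measured macrophage identity genes other than the 9, 18 were past 2-fold upward with MNU (7.14% of all genes) and 3 downward (14.2% of all genes), with a median log2 difference of 1.17. Fcgr4, an activating antibody receptor, was 22.9-fold higher (91.2 against 2089), Gpnmb, a glycoprotein of lipid-laden macrophages, 9.67-fold (227 against 2195) and the chemokine Ccl8 8.81-fold. Lower were Hpgd, which degrades prostaglandins (1495 against 46.4, 32.3-fold), Cx3cr1, the fractalkine receptor (376 against 49.1, 7.65-fold) and Aif1 (2.08-fold). Among general macrophage markers, Emr1, which encodes F4/80, was 1.62-fold higher, Mertk, a receptor for dying cells, 1.88-fold, Cd68 2.77-fold and Lyz2 1.41-fold, and Mpeg1 stood at 6595 and 5823.

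With MNU in the knockout, 1 of the 35 was past 2-fold upward (0.331% of all genes) and 6 downward (2.95% of all genes), with a median of 0.23. Cd5l, a secreted scavenger protein of tissue macrophages, was 3.11-fold higher, and Cd209f and Pf4 were 3.82-fold and 2.84-fold lower. With the share subtracted, 2 were higher (0.397% of all genes) and 1 lower (1.87%). Without MNU, 33 of the 35 were higher in the library labelled knockout than in wild type by any amount (49.9% of all genes) and 8 at least 2-fold (2.59% of all genes), with Fcgr4 at 8.42-fold and Ccl8 at 4.91-fold. With the share subtracted, 31 were higher by any amount and 6 at least 2-fold (1.72% of all genes). For the 13 of them that were at least 2-fold higher in MNU wild type than the mean of vehicle wild type and MNU knockout, the share of that excess held by vehicle knockout had a median of 25.3%. With MNU knockout in its place 11 were at least 2-fold higher (1.57% of all genes), Fcgr4 at 14.3-fold and Cd5l at 13.6-fold. The summed level of the list was 73393 in vehicle wild type, 112296 in MNU wild type, 109372 in vehicle knockout (108841 with the share subtracted) and 127269 in MNU knockout.

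Partner genes of each member did not all follow it in MNU wild type. Beside the counts of these lists, 7.14% of all genes passed 2-fold upward and 14.2% downward. Both growth factors that bind the Csf1r receptor were lower, Csf1 at 840 against 367 and Il34 at 321 against 106, and of 19 genes of the CSF receptor axis 5 were at least 2-fold lower and 0 higher (median -0.73). Cebpa, a myeloid transcription factor, was 7.25-fold lower and Plcg2, a signalling phospholipase, 4.57-fold lower. Among 18 complement genes 2 were higher and 3 lower (median 0.06), shares near those over all genes: Cfp, which encodes properdin, was 2.25-fold and Cd55, a complement inhibitor, 2.33-fold higher, C6 was 8.08-fold lower, and the proteases that bind C1q stayed within 2-fold, C1ra at 947 against 1191 and C1s at 2206 against 2072.

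Receptors for scavenging and for dying cells were divided. Of 23 measured, 4 were higher and 8 lower (median -0.31), against 7.14% and 14.2% of all genes. Msr1, a scavenger receptor of the same class as Marco, was 4.78-fold higher and Stab1 3.17-fold, whereas Gas6, the bridging ligand of MERTK, was 11.7-fold lower, Cd36 4.48-fold and Clec7a, the beta-glucan receptor, 4.12-fold.

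Hmox1 passed 2-fold, whereas most other haem and iron genes stayed within it. Most of all genes did so too, and nothing is read about this list. Of 21 measured, 2 were higher and 1 lower (median -0.06), against 7.14% and 14.2% of all genes. Slc40a1, which encodes the iron exporter ferroportin, was 3.79-fold lower, Slc11a2, an iron importer, 2.34-fold higher, and Lcn2 5.87-fold higher. The constitutive Hmox2 stood at 2734 and 2424, and the ferritin chains Ftl1 and Fth1 at 25494 and 22748 and at 22046 and 20807. Hmox1 is also a target of NRF2, the oxidant-responsive transcription factor. Of 22 NRF2 target genes 2 were higher and 3 lower (median -0.16), shares near those over all genes, from which nothing is read about these targets. Osgin1 was 8.73-fold and Slc7a11, the cystine transporter, 2.27-fold higher, whereas Nqo1 was 7.45-fold and Srxn1 6.33-fold lower.

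Other genes of arginine use and alternative activation were divided. Of 19 measured, 2 were higher, where 7.14% of all genes were, and 8 lower, where 14.2% were (median -0.81). Odc1, which uses the ornithine that arginase makes, was 3.38-fold higher and Chi3l3, also a neutrophil gene, 2.34-fold. Retnla, a classical marker of alternative activation, stood at 1386 without and 19.4 with MNU, Ccl22 at 2049 and 3.61, and Il4ra, the receptor for interleukin 4, was 4.56-fold lower. Among 25 cholesterol and lipoprotein genes, which handle lipids alongside Apoe, 1 was higher and 9 lower (median -0.56, against the same shares of all genes), with Trem2, a lipid-sensing macrophage receptor, 4.25-fold higher, and Scd1 and Apoc1 15.8-fold and 8.98-fold lower.

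**Figure D5:**
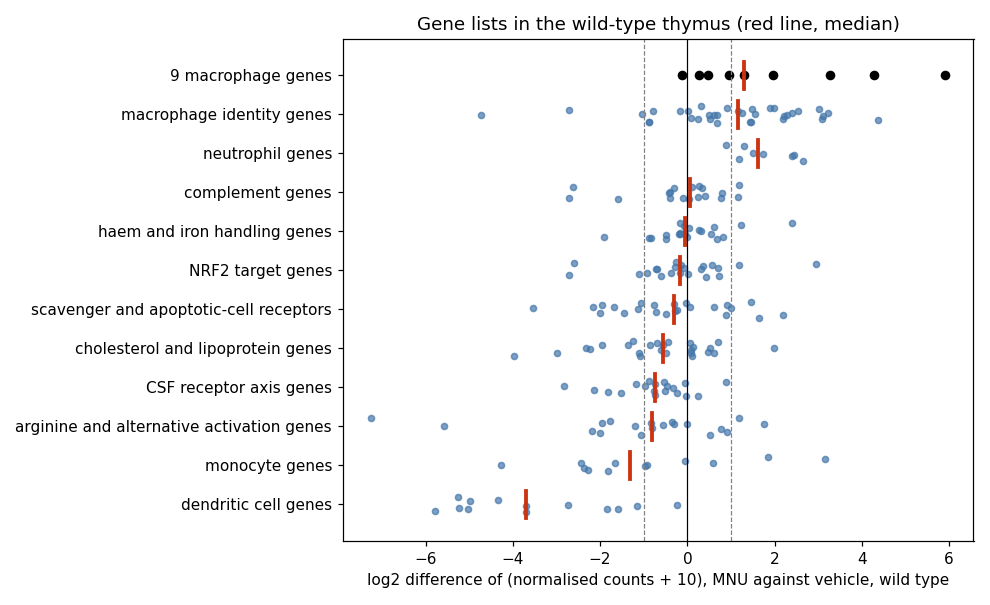
Log2 difference of (normalised counts + 10) with MNU in the wild-type thymus (horizontal axis) for single genes (points) of the 9 macrophage genes and of 11 gene lists, with each median as a red line and dashed lines at 2-fold. Medians run from 1.62 for neutrophil genes and 1.17 for macrophage identity genes to -3.71 for dendritic cell genes.

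Markers of other cells that a thymus holds also differed in wild type, beside 7.14% (higher) and 14.2% (lower) of all genes past 2-fold. Neutrophil genes were at least 2-fold higher in 7 of 8 (median 1.62), and their summed level was 2042 without and 6483 with MNU, against 3328 (2755 with the share subtracted) and 3851 in the knockout. With MNU in the knockout, 4 of the 8 were at least 2-fold higher (0.331% of all genes) and 1 lower (2.95%). With the share subtracted, 5 were higher (0.397% of all genes) and 0 lower (1.87%). On vehicle 1 of the 8 was at least 2-fold higher in knockout than in wild type and 0 lower, and with the share subtracted 0 were higher and 3 lower (0.501% of all genes). Monocyte genes were lower in 6 of 12 and higher in 2 (median -1.32). Ccr2 stood at 570 and 103 and Ly6c2 at 1754 and 486. The 2 higher genes were Clec4d, at 18.8 and 248, and Fn1, at 2509 and 9043. The monocyte list summed to 26460 and 21024, against 24430 (25048 subtracted) and 27156 in the knockout. Dendritic cell genes were lower in 12 of 13 (summed 195354 and 57474, against 203208, or 229677 subtracted, and 226371 in the knockout) and thymic epithelial genes in 14 of 16 (110032 and 1526, against 115529, or 136235 subtracted, and 89375), with Foxn1 the only one of these 49 genes listed at 0 in any library. Of the remaining lists, B cell genes were lower in 6 of 9 and higher in 1, adipocyte genes lower in 10 of 12, thymocyte genes lower in 6 of 14 and higher in 1, fibroblast genes higher in 6 of 12 and lower in 3, endothelial genes higher in 2 of 6 (Lyve1 and Stab1, which macrophages also express), and erythroid genes past 2-fold in 0 of 4. The part of these cells in the macrophage results was not tested.

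Over the whole table, genes with the profile most like each member were taken by the distance between log2(value + 10) profiles centred on their means over the 4 libraries. With 4 libraries many genes lie close, and the distances are a description. Closest to C1qa were Abcc3, Lyz1, Plek and Apobec1 (distances up to 0.08), to C1qb Fcgr3, Cd38, Naip5 and Lilrb4 (up to 0.15), and to C1qc Lrrc25, Lilrb3, Cyth4 and Mertk (up to 0.10). Csf1r had Plxnb2, Unc93b1, Mpeg1 and Pld4 (up to 0.12), Apoe had Ms4a6c, Lyz2, Tlr7 and Lyl1 (up to 0.15), and Mrc1 had Cpxm1, Abcb1a, Msr1 and Osbpl3 (up to 0.18). Hmox1 lay nearest to Itga9, Rec8, Apol11a and Fcna (up to 0.29), with Itga9 at 427, 4437, 1230 and 844 normalised counts in wild type without and with MNU and knockout without and with MNU. Arg1 and Marco had no gene so near: Spp1, which encodes the secreted glycoprotein osteopontin, was closest to Arg1 at 0.60 (102, 6685, 1332 and 219), followed by Atp8a2, Trnp1 and Gm266, and Reep1 was closest to Marco at 0.49, followed by Patl2, Gfra1 and Fam69b. Within the 9, the nearest pair was Apoe and C1qa (0.24), then C1qb and C1qc (0.29), while Arg1 and Marco lay 1.97 apart.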

How the data were processed

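Bulk RNA of thymus was sequenced in 4 libraries, 1 per group, with RNA integrity numbers above 7.5 and TruSeq libraries per the labels' protocols. The submitters' processing notes list TopHat2 2.0.8b, edgeR and mm9, with no role. How reads were counted per gene, on which annotation and with which filter is not stated. The deposited table holds a signal per gene and library that the authors call normalised counts, with values that are not whole. The method of normalisation is not given. Low values lay in steps of 0.993, 0.928, 1.06 and 1.02 units in vehicle and MNU wild type and vehicle and MNU knockout, so 1 unit was about 1 read. Since the values are no longer whole reads, no count model or counting interval was computed.

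Groups came from the labels. Genes with a mean of at least 10 normalised counts were kept (10587, with 11 removed), and log2 was taken after adding 10. Without replicates no p-value was computed. The members, the 18 gene lists, the thresholds and the alternatives were chosen with earlier results of these data known. Lists share some genes. Values of near-identical relatives (C4a and C4b, Chi3l3 and Chi3l4, Lyz1 and Lyz2, the Lilrb and Fcgr genes) are uncertain singly, since reads can be split between them. The rule for named genes took all 9 members, the 3 highest and 3 lowest genes of each list for MNU in wild type and 2 of each in the other comparisons (at least 2-fold and 100 in the higher library), and the 4 genes of most like profile. Not all genes that the rule took are named in the text, mainly among the lists of other cell types. Other named genes were chosen after their values were seen. The share subtracted from vehicle knockout was the median over the 42 genes, and results below 0 were set to 0. The arithmetic of the 2-fold rule and of the subtraction was checked on simulated data. These held no variation between mice, and the mixture was exact with a known share. The check therefore cannot tell whether either step suits the real libraries. Alternatives were pseudocounts of 2.5 and 40, no filter and a minimum mean of 100, median-of-ratios and upper-quartile scaling, and a 4-fold threshold. Analysis used Python 3.11.15, numpy 2.4.6 and pandas 2.3.3.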

Additional observations from a re-analysis of the deposited data

Results flagged for a closer look

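With MNU, 5 of the 9 genes moved in opposite directions in wild type and knockout, each direction resting on 1 library against 1, and the difference was not tested. The share of all genes with opposite directions was not computed, so nothing is read from the count of 5. The difference of the log2 changes, wild type minus knockout, was 7.76 for Arg1, 7.55 for Marco, 3.85 for Hmox1, 2.31 for Mrc1 and -0.32 for Csf1r. For Csf1r both changes were small, at -0.13 in wild type and 0.19 in knockout. With the MNU wild-type share subtracted from vehicle knockout, the knockout changes of Arg1 and Hmox1 were no longer decreases, at 1.03 and 1.33 times the vehicle level, Mrc1 stood at 0.949 times and Marco at 0.131 times.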

How the results depend on the processing

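Pseudocounts of 2.5 and 40, no filter, a minimum mean of 100 and both other scalings left each count of members past 2-fold within 1.5 times its value, and moved the median of all genes by less than 0.1 on the log2 scale. With a 4-fold threshold, 3 of 9 genes were higher with MNU in wild type, 1 was lower with MNU in knockout and 2 were higher in vehicle knockout than in vehicle wild type. The shares of all genes past 4-fold were not computed, so these counts stand without a background. With the MNU wild-type share subtracted from vehicle knockout, 1 gene was lower with MNU in knockout and 1 was higher in vehicle knockout than in vehicle wild type, and the log2 difference of Arg1 with MNU in knockout turned to 0.046. With vehicle knockout left out and MNU knockout set against vehicle wild type, 2 genes were higher and 1 lower in place of both comparisons, the log2 difference of Arg1 turned to 1.71, that of Marco to -1.05, and the median of erythroid genes to -0.45. The cause of these turns was not tested. No paired analysis was possible because each group holds 1 library. Without replicates the depth limits low genes most, above all Marco in MNU knockout.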
